A study of Mus musculus with 18 samples.

Results

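The astrocyte and Bergmann glia genes are 10 genes (*Gfap*, *Vim*, *Aqp4*, *Gja1*, *Slc1a3*, *Slc1a2*, *Hopx*, *Gdf10*, *Fabp7* and *S100b*) out of the 54752 genes in the expression tables. They were chosen by symbol as genes of astrocytes and Bergmann glia, with earlier results of these data known. They were read in RNA and in ribosome footprints of 3 genotypes to look for reactive change in glia before neurons are lost. The groups were C57BL/6J mice (B6J), congenic mice homozygous for a null allele of *Gtpbp1* (B6J.*Gtpbp1*-/-) and B6J mice homozygous for a null mutation of *Gtpbp2* (B6J-*Gtpbp2*-/-), all 3 weeks old, with 3 RNA and 3 footprint libraries of cerebellum per genotype. Controls and mutants alike carry the B6J mutation of the tRNA gene *n-Tr20*, so its own effect cannot be read from these groups. Both mutations are present in every cell and the tissue is the whole cerebellum, so a change in a glial gene can start in glia or in another cell, and fewer cells cannot be told apart from less RNA per cell. The study reported that both mutants look normal at this age and lose cerebellar granule cells soon after it. The 2 comparisons with B6J use the same control libraries, so the values of the mutants are given side by side.

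The genotype labels were checked on the mutated genes. *Gtpbp1* RNA was 70.9, 77.8 and 66.7 CPM in B6J, against 43.99, 41.7 and 43.9 CPM in B6J.*Gtpbp1*-/- and 58.6, 72.1 and 65.7 CPM in B6J-*Gtpbp2*-/-. The B6J.*Gtpbp1*-/- libraries were all below the other 6, and *Gtpbp1* fell in B6J.*Gtpbp1*-/- (log2 fold change -0.73, standard error 0.08, adjusted p = 5.94e-05). *Gtpbp1* footprints were 73.6, 117 and 84.8 CPM in B6J, against 31.99, 25.5 and 35.6 CPM in B6J.*Gtpbp1*-/- and 79.3, 66.8 and 62.1 CPM in B6J-*Gtpbp2*-/-, again lowest in the 3 B6J.*Gtpbp1*-/- libraries (log2 fold change -1.57, standard error 0.23, adjusted p = 0.00676). *Gtpbp2* RNA was 85.9, 74.02 and 88.1 CPM in B6J, against 109, 100.5 and 104 CPM in B6J.*Gtpbp1*-/- and 65.5, 75.4 and 72.7 CPM in B6J-*Gtpbp2*-/-. It overlapped between B6J-*Gtpbp2*-/- and B6J (log2 fold change -0.22, standard error 0.09, adjusted p = 0.19), so the RNA does not check that label, and it rose in B6J.*Gtpbp1*-/- (log2 fold change 0.34, standard error 0.08, adjusted p = 0.0154). *Gtpbp2* footprints were 44.7, 36.1 and 38.4 CPM in B6J, against 36.2, 43.3 and 58.3 CPM in B6J.*Gtpbp1*-/- and 28.9, 26.4 and 7.54 CPM in B6J-*Gtpbp2*-/-. The 3 B6J-*Gtpbp2*-/- libraries were below the other 6, but the test was not passed (log2 fold change -0.97, standard error 0.44, adjusted p = 0.321).

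All 10 genes were abundant in B6J. Per unit of length, *Slc1a3* was first (933 TPM, above 99.8% of genes), followed by *S100b* (479 TPM), *Aqp4* (275 TPM), *Hopx* (236 TPM), *Fabp7* (208 TPM), *Gja1* (184 TPM), *Slc1a2* (167 TPM), *Vim* (163 TPM), *Gfap* (109 TPM) and *Gdf10* (80.7 TPM, above 94.2% of genes). The B6J libraries kept *Slc1a3*, *S100b* and *Aqp4* apart from each other and *Vim*, *Gfap* and *Gdf10* apart from each other, while each neighbouring pair from *Aqp4* to *Vim* overlapped. The mean of *Gfap* was 305 TPM in B6J.*Gtpbp1*-/- and 277 TPM in B6J-*Gtpbp2*-/-, where its libraries overlapped with those of the genes next to it in order. In footprints per 1000 codons the order of the B6J means was *Slc1a3* (4108 CPM), *S100b* (2762), *Hopx* (2330.2), *Slc1a2* (1933), *Aqp4* (1303), *Gja1* (1223), *Gdf10* (1030.5), *Fabp7* (755), *Vim* (562) and *Gfap* (322). Only *Slc1a3* was apart from its neighbour in this order. *Gfap* had the lowest mean in B6J, with libraries that overlapped with those of *Vim*, and its mean was 779 CPM in B6J.*Gtpbp1*-/- and 743 CPM in B6J-*Gtpbp2*-/-. The summed RNA of the 10 genes was 5209, 5498 and 4669.6 CPM in B6J, against 4998, 4485 and 4918 CPM in B6J.*Gtpbp1*-/- and 4652.5, 4859 and 4528 CPM in B6J-*Gtpbp2*-/-, and the groups overlapped.

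In RNA, 4 of the 10 genes passed the threshold in B6J.*Gtpbp1*-/- against B6J (1 up, 3 down), where 13.8% of all 24577 tested genes did (edgeR quasi-likelihood, Benjamini-Hochberg adjusted p of at most 0.05). In B6J-*Gtpbp2*-/- against B6J, 5 of the 10 passed (1 up, 4 down), beside 8.63% of 24859 tested genes. Between the mutants the count was 0 of 10 with edgeR (1 at unadjusted p under 0.05, 0 by DESeq2), beside 0.0595% of 25190 genes. Over all genes there, 3.57% had an unadjusted p under 0.05 and DESeq2 called 42. The 10 genes had a median log2 fold change of -0.05 in B6J.*Gtpbp1*-/- and of -0.13 in B6J-*Gtpbp2*-/-, against 0.03 over all tested genes in both. In footprints none of the 10 passed with edgeR in any comparison. Against B6J the count in B6J.*Gtpbp1*-/- was 0 of 10 (2 at unadjusted p under 0.05, 1 by DESeq2), beside 0.745% of 13956 genes, and in B6J-*Gtpbp2*-/- it was 0 of 10 (2 at unadjusted p under 0.05, 1 by DESeq2), beside 2.94% of 13797 genes. Between the mutants it was 0 of 10 in footprints (2 at unadjusted p under 0.05, 1 by DESeq2), beside 0% of 14142 genes. Over all footprint genes, unadjusted p was under 0.05 in 12.6% in B6J.*Gtpbp1*-/-, 17.1% in B6J-*Gtpbp2*-/- and 10.8% between the mutants. DESeq2 called 406, 634 and 91 of them in the same order. In footprints the 10 genes had a median log2 fold change of 0.21 in B6J.*Gtpbp1*-/- and of 0.07 in B6J-*Gtpbp2*-/-, against 0.01 over all genes in both. Of these fold changes 6 fell below 0 in B6J.*Gtpbp1*-/- when a single library was left out.

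**Figure D1:**
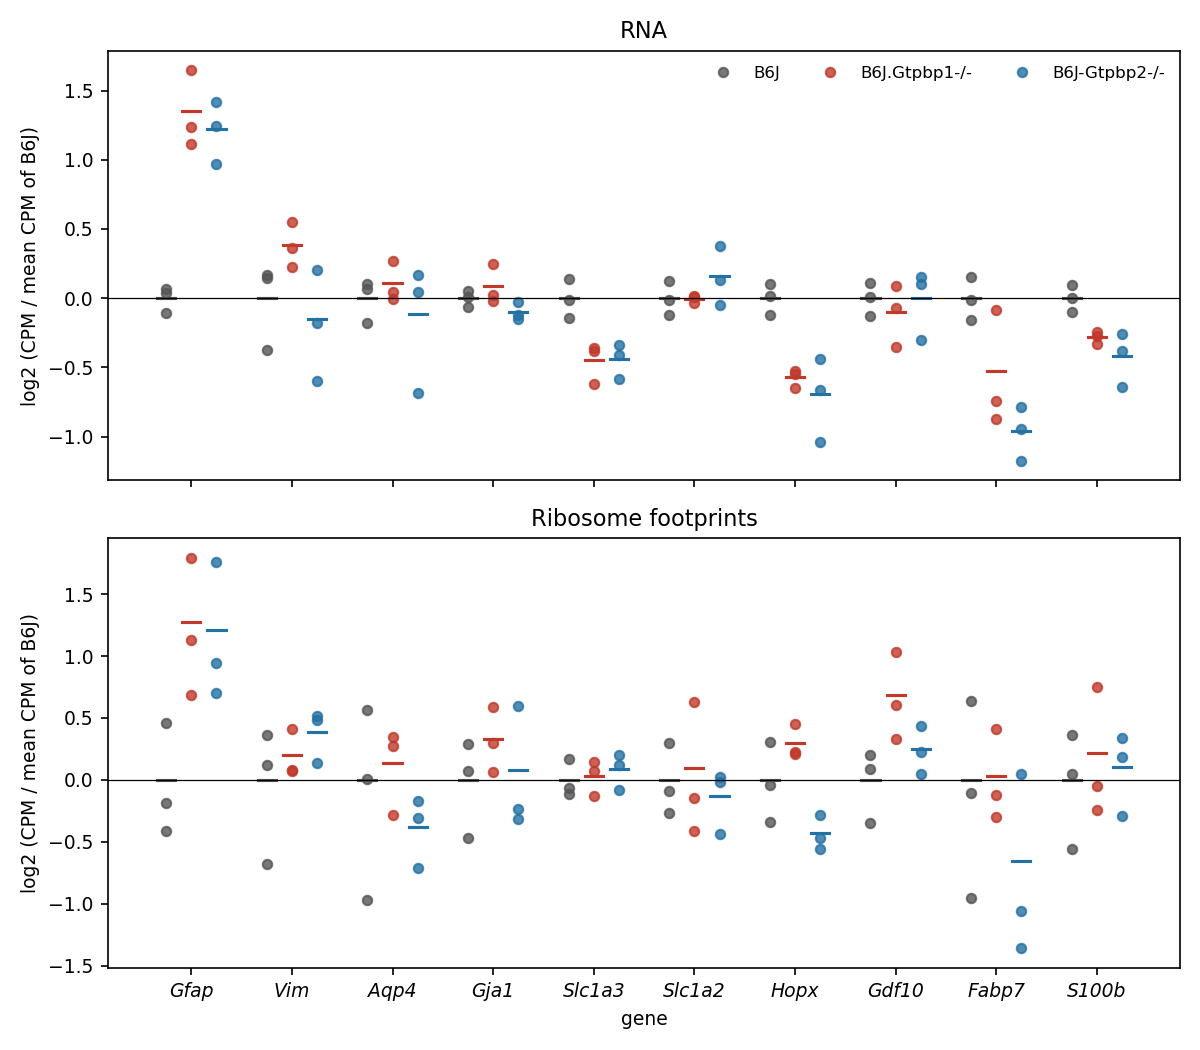
Level of each of the 10 genes in every RNA and footprint library, as log2 of its CPM over the mean CPM of B6J (dots are libraries, short lines genotype means). *Gfap* RNA in all 6 mutant libraries lies above the 3 B6J libraries, with fold changes of 2.55 in B6J.*Gtpbp1*-/- and 2.33 in B6J-*Gtpbp2*-/-.

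GFAP and vimentin build the intermediate filaments of astrocytes and of the radial fibres of Bergmann glia. Both are raised in reactive astrocytes, GFAP most reliably, and vimentin is also made by endothelium, microglia and meninges. *Gfap* RNA was 176, 156 and 173.5 CPM in B6J, against 528, 365 and 398 CPM in B6J.*Gtpbp1*-/- and 331, 450.3 and 400.2 CPM in B6J-*Gtpbp2*-/-. Every mutant library was above every B6J library, and the mutants overlapped with each other. *Gfap* rose 2.55-fold in B6J.*Gtpbp1*-/- (log2 fold change 1.35, standard error 0.13, adjusted p = 3.04e-05) and 2.33-fold in B6J-*Gtpbp2*-/- (log2 fold change 1.22, standard error 0.11, adjusted p = 0.000104). Both calls held in every alternative analysis and with any library left out, 14 of 14 in B6J.*Gtpbp1*-/- (log2 fold change 1.18 to 1.46) and 13 of 13 in B6J-*Gtpbp2*-/- (1.11 to 1.33). *Gfap* footprints were 104, 190.0 and 121.5 CPM in B6J, against 303, 222 and 479.6 CPM in B6J.*Gtpbp1*-/- and 266, 225 and 468 CPM in B6J-*Gtpbp2*-/-. The groups did not overlap here either, but the threshold was not passed in B6J.*Gtpbp1*-/- (log2 fold change 1.28, standard error 0.29, adjusted p = 0.0771) or in B6J-*Gtpbp2*-/- (log2 fold change 1.20, standard error 0.32, adjusted p = 0.0967). DESeq2 called *Gfap* footprints in both (adjusted p = 0.00181 in B6J.*Gtpbp1*-/- and 5.86e-04 in B6J-*Gtpbp2*-/-). The edgeR call in B6J.*Gtpbp1*-/- was also reached with no filter on low counts (adjusted p = 0.0467) and without B6J.*Gtpbp1*-/- footprint library 2 (log2 fold change 1.52, adjusted p = 0.0233), in a range of 0.00181 to 0.281 over the 11 alternatives. The adjusted p in B6J-*Gtpbp2*-/- ranged from 5.86e-04 to 0.229. The transcript Gfap-201 gave most of the *Gfap* TPM in each genotype (88.3% in B6J, against 90.3% in B6J.*Gtpbp1*-/- and 91.7% in B6J-*Gtpbp2*-/-).

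*Vim* RNA was 163, 160.1 and 112 CPM in B6J, against 212, 186 and 169 CPM in B6J.*Gtpbp1*-/- and 95.8, 167 and 128 CPM in B6J-*Gtpbp2*-/-. In CPM the B6J.*Gtpbp1*-/- libraries lay above the B6J libraries by a small margin and the B6J-*Gtpbp2*-/- libraries overlapped with B6J. As TPM, which is not TMM scaled, *Vim* was 181, 183 and 124 in B6J and 295, 256 and 240 in B6J.*Gtpbp1*-/-, a wider margin. The TPM values of B6J-*Gtpbp2*-/- (112, 221 and 172) overlapped with B6J. *Vim* passed in neither mutant (log2 fold change 0.39, standard error 0.14, adjusted p = 0.12 in B6J.*Gtpbp1*-/-, and log2 fold change -0.15, standard error 0.23, adjusted p = 0.779 in B6J-*Gtpbp2*-/-). In B6J.*Gtpbp1*-/-, *Vim* was called by DESeq2 (adjusted p = 0.0253), with no filter on low counts (1.70e-04), with a replicate block (0.0334) and with an offset for effective length (0.0435), within a range of 1.70e-04 to 0.306 over 14 alternatives. A transcript with a retained intron, Vim-203, gave 29.9% of *Vim* TPM in B6J, against 37.6% in B6J.*Gtpbp1*-/- and 31.2% in B6J-*Gtpbp2*-/-. *Vim* footprints were 163.5, 285 and 337.5 CPM in B6J, against 349, 276 and 276 CPM in B6J.*Gtpbp1*-/- and 366, 289 and 375 CPM in B6J-*Gtpbp2*-/-, with overlap between the groups (log2 fold change 0.20, adjusted p = 0.804 in B6J.*Gtpbp1*-/-, and log2 fold change 0.38, adjusted p = 0.44 in B6J-*Gtpbp2*-/-).

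Of 11 other intermediate filament and linker genes, RNA gave 1 up and 4 down of 11 (6 by DESeq2) in B6J.*Gtpbp1*-/- (median log2 fold change -0.17) and 0 up and 2 down of 11 (4 by DESeq2) in B6J-*Gtpbp2*-/- (-0.11). The 4 that fell in B6J.*Gtpbp1*-/- were neuronal or muscle filaments, *Nefm* (log2 fold change -0.46, adjusted p = 0.0209), *Nefh* (-0.37, adjusted p = 0.0187), *Ina* (-0.26, adjusted p = 0.0411) and *Des* (-0.74, adjusted p = 0.0375), and the 1 that rose was *Nes* (0.73, adjusted p = 0.00274). *Nes* was short of the threshold in B6J-*Gtpbp2*-/- RNA (log2 fold change 0.84, adjusted p = 0.135) and did not pass between the mutants (log2 fold change -0.11, adjusted p = 1.00). With upper quartile normalization the counts were 1 up and 2 down in B6J.*Gtpbp1*-/- and 0 up and 0 down in B6J-*Gtpbp2*-/-. In footprints the counts were 0 of 11 (2 at unadjusted p under 0.05, 0 by DESeq2, median -0.05) in B6J.*Gtpbp1*-/- and 2 up and 0 down of 11 (2 by DESeq2, median 0.11) in B6J-*Gtpbp2*-/-.

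Astrocytes respond to injury and to inflammation with partly shared sets of induced genes. Many of these genes are also made by microglia and blood vessels, so whole tissue does not assign them to astrocytes. A list of 37 such genes was read, of which 36 were tested in RNA. The list was chosen with earlier results of these data known, so its counts are not independent of them. B6J.*Gtpbp1*-/- RNA gave 18 up and 0 down of 36 (20 by DESeq2), beside 13.8% of all tested genes called, with a median log2 fold change of 0.76 against 0.03 over all genes. B6J-*Gtpbp2*-/- RNA gave 12 up and 1 down of 36 (18 by DESeq2), beside 8.63% of all tested genes called, with a median of 0.74. The summed level of the list was 384, 420.2 and 375 CPM in B6J, against 522, 511 and 515 CPM in B6J.*Gtpbp1*-/- and 473, 502 and 494 CPM in B6J-*Gtpbp2*-/-. Every mutant library was above every B6J library, and *H2-D1* was the most abundant gene by TPM.

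*Fbln5* RNA was 6.12, 7.69 and 8.48 CPM in B6J, against 28.3, 28.2 and 35.8 CPM in B6J.*Gtpbp1*-/- and 23.04, 33.5 and 29.9 CPM in B6J-*Gtpbp2*-/-. *Serpina3n* RNA was 2.32, 3.80 and 2.50 CPM in B6J, against 13.1, 10.1 and 12.5 CPM in B6J.*Gtpbp1*-/- and 9.98, 8.96 and 10.38 CPM in B6J-*Gtpbp2*-/-. For both, all 6 mutant libraries were above all 3 B6J libraries. *Fbln5* rose in B6J.*Gtpbp1*-/- (log2 fold change 2.05, standard error 0.15, adjusted p = 1.43e-06) and in B6J-*Gtpbp2*-/- (log2 fold change 1.96, standard error 0.17, adjusted p = 7.94e-05). *Serpina3n* rose in B6J.*Gtpbp1*-/- (log2 fold change 2.05, standard error 0.21, adjusted p = 2.99e-05) and in B6J-*Gtpbp2*-/- (log2 fold change 1.77, standard error 0.22, adjusted p = 0.000651). *Cxcl10* RNA was 0.0853, 0.13 and 0.556 CPM in B6J, against 2.97, 6.75 and 4.83 CPM in B6J.*Gtpbp1*-/- and 1.22, 4.02 and 1.55 CPM in B6J-*Gtpbp2*-/-. All mutant libraries were higher than B6J at these low levels, and *Cxcl10* rose in B6J.*Gtpbp1*-/- (log2 fold change 4.20, adjusted p = 0.00259) and in B6J-*Gtpbp2*-/- (log2 fold change 3.11, adjusted p = 0.0302). *Osmr* RNA was 4.41, 4.21 and 4.25 CPM in B6J, against 7.54, 5.70 and 7.29 CPM in B6J.*Gtpbp1*-/- and 8.09, 8.31 and 8.63 CPM in B6J-*Gtpbp2*-/-. The groups did not overlap with B6J, and *Osmr* rose in B6J.*Gtpbp1*-/- (log2 fold change 0.67, adjusted p = 0.0296) and B6J-*Gtpbp2*-/- (log2 fold change 0.96, adjusted p = 0.00499).

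*Iigp1*, *H2-T23*, *C3* and *Steap4* also rose in both mutants. *Iigp1* gave a log2 fold change of 1.94, adjusted p = 0.00143 in B6J.*Gtpbp1*-/- and 1.99, adjusted p = 0.00256 in B6J-*Gtpbp2*-/-. *H2-T23* gave 0.80, adjusted p = 0.00197 in B6J.*Gtpbp1*-/- and 0.57, adjusted p = 0.0372 in B6J-*Gtpbp2*-/-. *C3* gave 1.92, adjusted p = 0.01 in B6J.*Gtpbp1*-/- and 1.59, adjusted p = 0.0456 in B6J-*Gtpbp2*-/-, and *Steap4* gave 2.57, adjusted p = 0.00447 and 2.14, adjusted p = 0.0389. *Gbp2*, *Cp* and *S1pr3* passed in B6J.*Gtpbp1*-/- only. For *Gbp2* the values were 1.34, adjusted p = 0.00121 in B6J.*Gtpbp1*-/-, 1.03, adjusted p = 0.149 in B6J-*Gtpbp2*-/- and 0.31, adjusted p = 1.00 between the mutants. *Cp* gave 0.53, adjusted p = 0.0121 in B6J.*Gtpbp1*-/-, 0.37, adjusted p = 0.0996 in B6J-*Gtpbp2*-/- and 0.16, adjusted p = 1.00 between the mutants. *S1pr3* gave 0.84, adjusted p = 0.0312 in B6J.*Gtpbp1*-/-, 0.70, adjusted p = 0.0977 in B6J-*Gtpbp2*-/- and 0.14, adjusted p = 1.00 between the mutants. *Lcn2*, *Timp1* and *Cd44* passed in neither. *Lcn2* RNA was 0.0853, 0.389 and 0 CPM in B6J, against 0.678, 0.699 and 1.59 CPM in B6J.*Gtpbp1*-/- and 0.747, 0.67 and 0.674 CPM in B6J-*Gtpbp2*-/-, low in all libraries (log2 fold change 2.64, adjusted p = 0.089 in B6J.*Gtpbp1*-/-, and log2 fold change 2.14, adjusted p = 0.189 in B6J-*Gtpbp2*-/-). *Timp1* gave 1.22, adjusted p = 0.0556 in B6J.*Gtpbp1*-/- and 1.13, adjusted p = 0.121 in B6J-*Gtpbp2*-/-, and *Cd44* gave 0.34, adjusted p = 0.14 and 0.03, adjusted p = 0.957.

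In footprints the reactive list gave 0 of 33 (21 at unadjusted p under 0.05, 8 by DESeq2) in B6J.*Gtpbp1*-/- with edgeR, with a median log2 fold change of 0.87, and 3 up and 0 down of 32 (4 by DESeq2) in B6J-*Gtpbp2*-/-, with a median of 0.63. *Osmr* was 1 of those 3 (log2 fold change 1.41, adjusted p = 0.012 in B6J-*Gtpbp2*-/-, 1.18, adjusted p = 0.116 in B6J.*Gtpbp1*-/-, and -0.24, adjusted p = 0.801 between the mutants). *Gbp2* footprints were 3.58, 3.08 and 5.56 CPM in B6J, against 9.22, 73.1 and 4.34 CPM in B6J.*Gtpbp1*-/- and 7.03, 6.60 and 7.44 CPM in B6J-*Gtpbp2*-/-, and *Iigp1* footprints were 0.447, 0.22 and 1.75 CPM in B6J, against 3.602, 36.4 and 2.50 CPM in B6J.*Gtpbp1*-/- and 1.25, 2.75 and 3.29 CPM in B6J-*Gtpbp2*-/-. Library 2 of B6J.*Gtpbp1*-/- was thus far above the other B6J.*Gtpbp1*-/- libraries for these 2 genes, and whether it differs in inflammation was not tested.

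**Figure D2:**
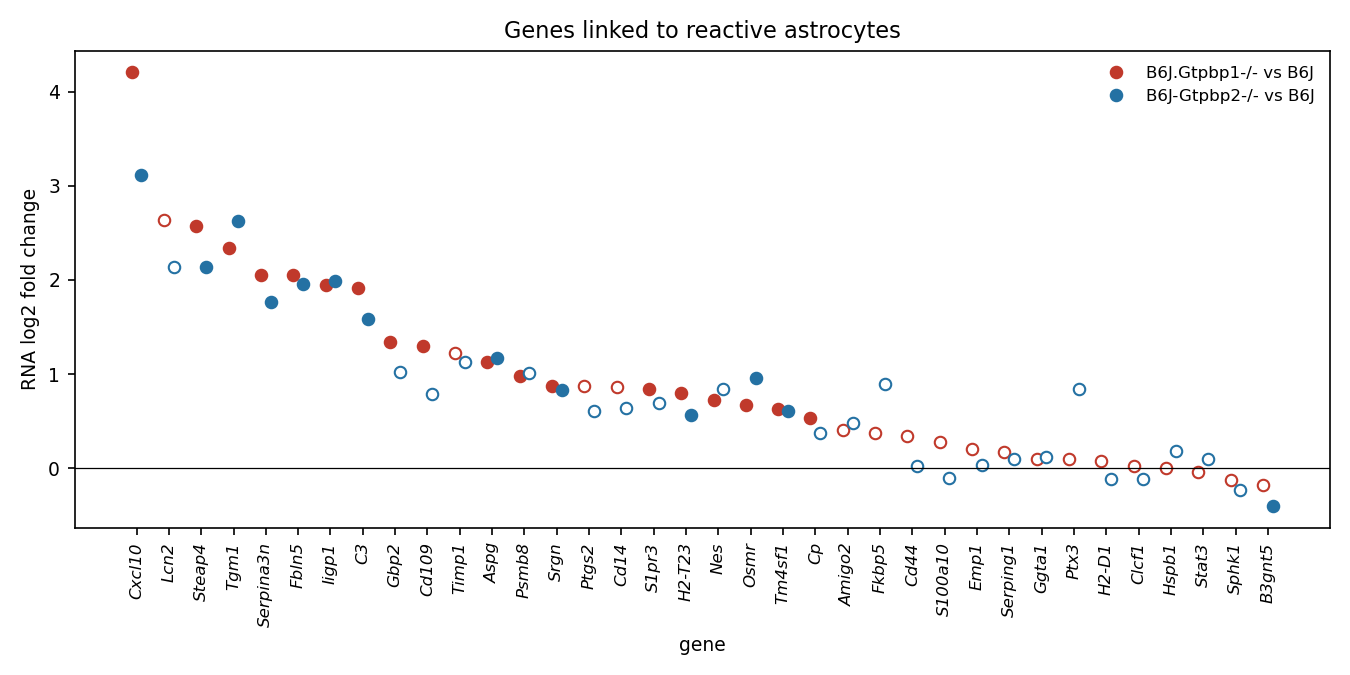
RNA log2 fold change of the 36 tested genes of the reactive list in both mutants, sorted by the value in B6J.*Gtpbp1*-/- (filled symbols, adjusted p of at most 0.05). In B6J.*Gtpbp1*-/- 18 were up and 0 down, and in B6J-*Gtpbp2*-/- 12 were up and 1 down. The list was chosen with earlier results of these data known.

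Genes of other cell types moved with *Gfap*, and whether cell numbers caused this was not tested. Of 10 microglia genes, RNA gave 8 up and 0 down of 10 (8 by DESeq2) in B6J.*Gtpbp1*-/- (median log2 fold change 1.04) and 7 up and 0 down of 10 (7 by DESeq2) in B6J-*Gtpbp2*-/- (0.97). Their summed level was 139.8, 134 and 147 CPM in B6J, against 285, 252 and 251 CPM in B6J.*Gtpbp1*-/- and 242, 262 and 272 CPM in B6J-*Gtpbp2*-/-, and every mutant library was above every B6J library. In footprints the microglia genes gave 2 up and 0 down of 10 (6 by DESeq2, median 1.15) in B6J.*Gtpbp1*-/- and 3 up and 0 down of 10 (3 by DESeq2, median 0.57) in B6J-*Gtpbp2*-/-. Of 10 endothelium and pericyte genes, RNA gave 5 up and 0 down of 10 (7 by DESeq2) in B6J.*Gtpbp1*-/- (median 0.35) and 3 up and 0 down of 10 (7 by DESeq2) in B6J-*Gtpbp2*-/- (0.45). In footprints they gave 1 up and 0 down of 10 (4 by DESeq2, median 0.81) and 3 up and 0 down of 10 (5 by DESeq2, median 0.64). With upper quartile normalization, 8 endothelium and pericyte genes were up in B6J.*Gtpbp1*-/- RNA and 4 microglia genes in B6J.*Gtpbp1*-/- footprints. The summed level of the endothelium and pericyte genes was 453, 452 and 439 CPM in B6J, against 542, 613 and 635 CPM in B6J.*Gtpbp1*-/- and 459, 693 and 727 CPM in B6J-*Gtpbp2*-/-. All mutant libraries were above B6J, and *Rgs5* was the most abundant by TPM. None of these genes was at 0.

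Of 12 granule neuron genes, RNA gave 0 up and 9 down of 12 (9 by DESeq2) in B6J.*Gtpbp1*-/- (median log2 fold change -0.48) and 0 up and 8 down of 12 (10 by DESeq2) in B6J-*Gtpbp2*-/- (-0.51). Their summed level was 7752, 8179 and 7728 CPM in B6J, against 5336, 5253 and 6054 CPM in B6J.*Gtpbp1*-/- and 5503, 5947 and 5133 CPM in B6J-*Gtpbp2*-/-. All mutant libraries were thus below B6J before the reported loss of granule cells, and *Cbln1* was the most abundant by TPM. *Gabra6* fell in B6J.*Gtpbp1*-/- (log2 fold change -1.08, adjusted p = 1.6e-05) and in B6J-*Gtpbp2*-/- (log2 fold change -1.02, adjusted p = 8.15e-05). Footprints of the granule neuron genes gave 0 of 12 (7 at unadjusted p under 0.05, 2 by DESeq2, median -0.60) in B6J.*Gtpbp1*-/- and 0 up and 8 down of 12 (9 by DESeq2, median -0.98) in B6J-*Gtpbp2*-/-. Of 10 Purkinje cell genes, RNA gave 0 up and 3 down of 10 (4 by DESeq2) in B6J.*Gtpbp1*-/- (median -0.22) and 0 up and 4 down of 10 (5 by DESeq2) in B6J-*Gtpbp2*-/- (-0.38). Footprints of the Purkinje cell genes gave 0 of 10 (1 at unadjusted p under 0.05, 0 by DESeq2, median 0.12) and 0 of 10 (3 at unadjusted p under 0.05, 2 by DESeq2, median 0.40). In RNA 10 of the 10 Purkinje cell genes were below 0 in each mutant, while in footprints 9 were above 0 in B6J.*Gtpbp1*-/- and 10 in B6J-*Gtpbp2*-/-.

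Oligodendrocyte genes passed in RNA of B6J.*Gtpbp1*-/- only, with 0 up and 7 down of 10 (8 by DESeq2) in B6J.*Gtpbp1*-/- (median log2 fold change -0.35) and 0 of 10 (0 at unadjusted p under 0.05, 0 by DESeq2) in B6J-*Gtpbp2*-/- (median 0.0034). Between the mutants the edgeR count was 0 of 10 (7 at unadjusted p under 0.05, 1 by DESeq2), with a median of -0.39. In footprints the counts for oligodendrocyte genes were 0 of 10 (0 at unadjusted p under 0.05, 0 by DESeq2, median 0.11) in B6J.*Gtpbp1*-/- and 0 of 10 (1 at unadjusted p under 0.05, 0 by DESeq2, median 0.22) in B6J-*Gtpbp2*-/-. In footprints 8 of them were above 0 in B6J.*Gtpbp1*-/- and 10 in B6J-*Gtpbp2*-/-, where RNA of B6J.*Gtpbp1*-/- had 10 below 0. Of 6 oligodendrocyte precursor genes, RNA gave 0 of 6 (2 at unadjusted p under 0.05, 1 by DESeq2, median -0.07) in B6J.*Gtpbp1*-/- and 1 up and 0 down of 6 (1 by DESeq2, median 0.13) in B6J-*Gtpbp2*-/-. Their footprints gave 0 of 6 (1 at unadjusted p under 0.05, 0 by DESeq2, median 0.31) and 0 of 6 (1 at unadjusted p under 0.05, 0 by DESeq2, median 0.01). Genes of meninges, bone and muscle gave 1 up and 0 down of 10 (1 by DESeq2, median 0.22) in B6J.*Gtpbp1*-/- RNA (*Ogn*, log2 fold change 0.76, adjusted p = 0.00184) and 0 of 10 (0 at unadjusted p under 0.05, 0 by DESeq2, median 0.01) in B6J-*Gtpbp2*-/- RNA. In footprints they gave 0 of 10 (7 at unadjusted p under 0.05, 3 by DESeq2, median 1.02) in B6J.*Gtpbp1*-/-, with 1 up after upper quartile normalization, and 0 of 8 (2 at unadjusted p under 0.05, 1 by DESeq2, median 0.01) in B6J-*Gtpbp2*-/-. Their summed footprint level was 486, 1003 and 1077 CPM in B6J, against 2177, 1642 and 3214 CPM in B6J.*Gtpbp1*-/- and 808, 1268 and 797 CPM in B6J-*Gtpbp2*-/-, with *Col1a1* the most abundant, so the 3 B6J.*Gtpbp1*-/- libraries were highest. *Col1a1* footprints were 109.8, 345 and 527 CPM in B6J, against 948, 832.5 and 1659.7 CPM in B6J.*Gtpbp1*-/- and 314, 537 and 207 CPM in B6J-*Gtpbp2*-/- (log2 fold change 1.81, adjusted p = 0.257 in B6J.*Gtpbp1*-/-). *Myh1* was low in footprints (0, 0.22 and 1.11 CPM in B6J, against 5.19, 3.79 and 7.68 CPM in B6J.*Gtpbp1*-/- and 0, 2.47 and 0.0967 CPM in B6J-*Gtpbp2*-/-) and in RNA (0.149, 0.108 and 0.358 CPM in B6J, against 0.109, 0.097 and 0.0522 CPM in B6J.*Gtpbp1*-/- and 0.277, 0.0383 and 0.225 CPM in B6J-*Gtpbp2*-/-), and its footprints were highest in B6J.*Gtpbp1*-/- while its RNA was not. Whether attached tissue differed between the groups was not tested. Of 6 choroid plexus genes, RNA gave 0 of 6 (0 at unadjusted p under 0.05, 0 by DESeq2, median 0.13) in B6J.*Gtpbp1*-/- and 0 of 6 (0 at unadjusted p under 0.05, 0 by DESeq2, median -0.73) in B6J-*Gtpbp2*-/-. Footprints of these genes gave 0 of 6 (0 at unadjusted p under 0.05, 0 by DESeq2, median 0.54) and 0 of 6 (0 at unadjusted p under 0.05, 0 by DESeq2, median 0.49). Their summed RNA level was 1810.2, 1199 and 259.7 CPM in B6J, against 1779, 1318 and 384 CPM in B6J.*Gtpbp1*-/- and 69.9, 1104 and 708 CPM in B6J-*Gtpbp2*-/-, with *Ttr* the most abundant by TPM, and varied mainly between libraries of the same genotype. The summed footprint level ranged more widely, at 5701, 3859 and 66.2 CPM in B6J. It was 13834, 219 and 12185 CPM in B6J.*Gtpbp1*-/- and 504, 9651 and 9741 CPM in B6J-*Gtpbp2*-/-.

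The labels give no sex. The Y-linked gene *Ddx3y* was 0, 101 and 0.516 CPM in B6J, against 119, 128 and 0.548 CPM in B6J.*Gtpbp1*-/- and 0.448, 0.249 and 0.225 CPM in B6J-*Gtpbp2*-/- in RNA, so B6J library 2 and B6J.*Gtpbp1*-/- libraries 1 and 2 were read as male and the other 6 RNA libraries as female, which leaves B6J-*Gtpbp2*-/- RNA with females only. In footprints *Ddx3y* was 84.8, 72.7 and 0.476 CPM in B6J, against 120.3, 2.87 and 0.668 CPM in B6J.*Gtpbp1*-/- and 2.50, 1.10 and 1.06 CPM in B6J-*Gtpbp2*-/-. The mix of libraries with high and low *Ddx3y* thus differs between the groups. As a gene, *Ddx3y* overlapped between each mutant and B6J and did not pass with edgeR in RNA (adjusted p = 0.823 in B6J.*Gtpbp1*-/- and 0.333 in B6J-*Gtpbp2*-/-) or in footprints (0.969 and 0.287). The effect of sex on the genes in B6J-*Gtpbp2*-/- was not tested.

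SLC1A3 (GLAST) and SLC1A2 (GLT-1) take up synaptic glutamate. SLC1A3 is the main glutamate transporter of Bergmann glia, which wrap the synapses onto Purkinje cells. *Slc1a3* RNA was 2085, 2320.4 and 1904 CPM in B6J, against 1616, 1369 and 1634 CPM in B6J.*Gtpbp1*-/- and 1666, 1584 and 1402 CPM in B6J-*Gtpbp2*-/-. All 6 mutant libraries were below all 3 B6J libraries. *Slc1a3* fell in B6J.*Gtpbp1*-/- (log2 fold change -0.45, standard error 0.10, adjusted p = 0.00911) and in B6J-*Gtpbp2*-/- (log2 fold change -0.44, standard error 0.10, adjusted p = 0.0219). The call in B6J.*Gtpbp1*-/- was lost without B6J.*Gtpbp1*-/- RNA library 2 (log2 fold change -0.37, adjusted p = 0.0683), without B6J RNA library 2 (-0.38, adjusted p = 0.0502) and with a replicate block (-0.45, adjusted p = 0.0587), and held in 11 of 14 alternatives (adjusted p 6.93e-05 to 0.0683). In B6J-*Gtpbp2*-/- it was lost without B6J-*Gtpbp2*-/- RNA library 2 (adjusted p = 0.0533), B6J-*Gtpbp2*-/- RNA library 3 (0.0821), B6J RNA library 1 (0.0876) or B6J RNA library 2 (0.0865), and held in 9 of 13 alternatives (3.75e-04 to 0.0876). The log2 fold change in the 13 alternatives ran from -0.50 to -0.37. *Slc1a3* footprints were 2127, 2059 and 2507 CPM in B6J, against 2038, 2344 and 2469.7 CPM in B6J.*Gtpbp1*-/- and 2422, 2111 and 2565 CPM in B6J-*Gtpbp2*-/-. The groups overlapped and the fall in RNA was not seen in footprints (log2 fold change 0.04, standard error 0.19, adjusted p = 0.961 in B6J.*Gtpbp1*-/-, and log2 fold change 0.07, standard error 0.17, adjusted p = 0.872 in B6J-*Gtpbp2*-/-).

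*Slc1a2* RNA was 1003, 1104 and 933.5 CPM in B6J, against 1020.3, 1022 and 991 CPM in B6J.*Gtpbp1*-/- and 1316, 979 and 1108 CPM in B6J-*Gtpbp2*-/-. The groups overlapped and *Slc1a2* passed in neither mutant (log2 fold change -0.003, standard error 0.09, adjusted p = 0.99 in B6J.*Gtpbp1*-/-, and log2 fold change 0.16, standard error 0.11, adjusted p = 0.458 in B6J-*Gtpbp2*-/-). *Slc1a2* footprints were 1038, 1360.2 and 919 CPM in B6J, against 830.0, 998 and 1713 CPM in B6J.*Gtpbp1*-/- and 1095, 816 and 1121.5 CPM in B6J-*Gtpbp2*-/-, with overlap throughout (log2 fold change 0.10, adjusted p = 0.926 in B6J.*Gtpbp1*-/-, and log2 fold change -0.14, adjusted p = 0.763 in B6J-*Gtpbp2*-/-). A list of 16 further genes covered glutamate and potassium uptake, the glutamine cycle and other amino acid transporters, *Slc1a4* among them. For this list RNA gave 5 up and 4 down of 16 (9 by DESeq2) in B6J.*Gtpbp1*-/- (median -0.03) and 2 up and 3 down of 16 (9 by DESeq2) in B6J-*Gtpbp2*-/- (0.11). With upper quartile normalization the median in B6J.*Gtpbp1*-/- was 0.03 and the counts were 5 up and 2 down, and in B6J-*Gtpbp2*-/- they were 3 up and 1 down. *Slc1a4* rose most clearly (log2 fold change 1.71, adjusted p = 1.73e-07 in B6J.*Gtpbp1*-/-, and 1.58, adjusted p = 1.98e-05 in B6J-*Gtpbp2*-/-), and whether this bears on glutamate uptake was not tested. *Slc38a2* rose (0.63, adjusted p = 0.000937 in B6J.*Gtpbp1*-/-, and 0.61, adjusted p = 0.00377 in B6J-*Gtpbp2*-/-), and *Atp1b2* fell (-0.47, adjusted p = 0.00237 in B6J.*Gtpbp1*-/-, and -0.35, adjusted p = 0.029 in B6J-*Gtpbp2*-/-). In footprints the counts were 1 up and 0 down of 16 (2 by DESeq2, median 0.20) in B6J.*Gtpbp1*-/- and 1 up and 0 down of 16 (3 by DESeq2, median 0.16) in B6J-*Gtpbp2*-/-.

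AQP4 is the water channel of astrocyte endfeet, and connexin 43, the product of *Gja1*, couples astrocytes through gap junctions. Their membrane partners include the syntrophin and dystrophin complex and the other astrocyte connexins. *Aqp4* RNA was 689, 674 and 568 CPM in B6J, against 643, 663 and 774 CPM in B6J.*Gtpbp1*-/- and 401, 724 and 663 CPM in B6J-*Gtpbp2*-/-. The groups overlapped, with B6J-*Gtpbp2*-/- library 1 the lowest of all 9, and *Aqp4* passed in neither mutant (log2 fold change 0.11, standard error 0.10, adjusted p = 0.582 in B6J.*Gtpbp1*-/-, and log2 fold change -0.11, standard error 0.21, adjusted p = 0.821 in B6J-*Gtpbp2*-/-). *Aqp4* footprints were 216, 623 and 424 CPM in B6J, against 510.0, 346 and 534 CPM in B6J.*Gtpbp1*-/- and 339, 257 and 375 CPM in B6J-*Gtpbp2*-/-, ranging widely within B6J (log2 fold change 0.14, adjusted p = 0.91 in B6J.*Gtpbp1*-/-, and log2 fold change -0.39, adjusted p = 0.657 in B6J-*Gtpbp2*-/-). *Gja1* RNA was 282, 291 and 268 CPM in B6J, against 332, 277 and 284.5 CPM in B6J.*Gtpbp1*-/- and 258, 275 and 253 CPM in B6J-*Gtpbp2*-/-. Both mutants overlapped with B6J and neither passed (log2 fold change 0.09, standard error 0.09, adjusted p = 0.605 in B6J.*Gtpbp1*-/-, and log2 fold change -0.10, standard error 0.08, adjusted p = 0.527 in B6J-*Gtpbp2*-/-). *Gja1* footprints were 337, 572 and 492 CPM in B6J, against 575, 489 and 701 CPM in B6J.*Gtpbp1*-/- and 398, 375 and 707 CPM in B6J-*Gtpbp2*-/-, again with overlap (log2 fold change 0.33, adjusted p = 0.573 in B6J.*Gtpbp1*-/-, and log2 fold change 0.07, adjusted p = 0.929 in B6J-*Gtpbp2*-/-). Of 12 genes of AQP4 anchoring and gap junctions, edgeR gave 0 of 12 (2 at unadjusted p under 0.05, 1 by DESeq2) in B6J.*Gtpbp1*-/- RNA (median 0.05) and 1 up and 1 down of 12 (2 by DESeq2) in B6J-*Gtpbp2*-/- RNA (-0.07). With upper quartile normalization the counts in B6J-*Gtpbp2*-/- RNA were 1 up and 0 down. Their footprints gave 0 of 12 (2 at unadjusted p under 0.05, 0 by DESeq2, median 0.22) in B6J.*Gtpbp1*-/- and 0 of 12 (3 at unadjusted p under 0.05, 0 by DESeq2, median 0.28) in B6J-*Gtpbp2*-/-.

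*Hopx*, *Gdf10* and *Fabp7* are enriched in Bergmann glia among cerebellar cells, and *S100b* marks Bergmann glia and other astrocytes. FABP7 is high in young radial glia and declines with maturation, and HOPX marks Bergmann glia and their progenitors. *Hopx* RNA was 119, 112 and 102 CPM in B6J, against 76.2, 70.9 and 77.5 CPM in B6J.*Gtpbp1*-/- and 54.1, 82.3 and 70.5 CPM in B6J-*Gtpbp2*-/-. All 6 mutant libraries were below all 3 B6J libraries. *Hopx* fell in B6J.*Gtpbp1*-/- (log2 fold change -0.57, standard error 0.08, adjusted p = 0.000331) and in B6J-*Gtpbp2*-/- (log2 fold change -0.69, standard error 0.14, adjusted p = 0.0128). The call held in 14 of 14 alternatives in B6J.*Gtpbp1*-/- (adjusted p 4.92e-09 to 0.00697) and in 10 of 13 in B6J-*Gtpbp2*-/- (2.58e-05 to 0.0546). In B6J-*Gtpbp2*-/- it was lost without B6J-*Gtpbp2*-/- RNA library 3 (adjusted p = 0.0537), B6J RNA library 1 (0.0546) or B6J RNA library 2 (0.0509). The log2 fold change stayed about as large in these fits (-0.70, -0.64 and -0.69). *Hopx* footprints were 134, 165 and 211 CPM in B6J, against 199, 197 and 232.5 CPM in B6J.*Gtpbp1*-/- and 140.1, 123 and 115 CPM in B6J-*Gtpbp2*-/-. The B6J.*Gtpbp1*-/- libraries overlapped with B6J and were all above B6J-*Gtpbp2*-/-, while B6J-*Gtpbp2*-/- overlapped with B6J by 1 library. No comparison of *Hopx* footprints passed with edgeR (log2 fold change 0.30, standard error 0.20, adjusted p = 0.569 in B6J.*Gtpbp1*-/-; log2 fold change -0.44, standard error 0.18, adjusted p = 0.214 in B6J-*Gtpbp2*-/-; log2 fold change 0.73, standard error 0.17, adjusted p = 0.244 between the mutants), and DESeq2 called only the difference between the mutants (adjusted p = 0.0276, in a range of 0.0276 to 0.778 over 11 alternatives).

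*Gdf10* RNA was 252, 271 and 229.7 CPM in B6J, against 239, 197 and 267 CPM in B6J.*Gtpbp1*-/- and 279, 269.6 and 204 CPM in B6J-*Gtpbp2*-/-. The groups overlapped and *Gdf10* passed in neither mutant (log2 fold change -0.10, standard error 0.11, adjusted p = 0.629 in B6J.*Gtpbp1*-/-, and log2 fold change -0.00086, standard error 0.12, adjusted p = 0.999 in B6J-*Gtpbp2*-/-). *Gdf10* footprints were 521, 386 and 564 CPM in B6J, against 616, 746 and 1002 CPM in B6J.*Gtpbp1*-/- and 575, 665 and 507 CPM in B6J-*Gtpbp2*-/-. The B6J.*Gtpbp1*-/- libraries were above B6J without passing (log2 fold change 0.69, standard error 0.22, adjusted p = 0.184), and B6J-*Gtpbp2*-/- overlapped with B6J (log2 fold change 0.24, adjusted p = 0.544).

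*Fabp7* RNA was 61.9, 55.1 and 50 CPM in B6J, against 33.2, 52.4 and 30.4 CPM in B6J.*Gtpbp1*-/- and 24.6, 32.2 and 28.9 CPM in B6J-*Gtpbp2*-/-. The B6J-*Gtpbp2*-/- libraries were all below B6J, and *Fabp7* fell in B6J-*Gtpbp2*-/- (log2 fold change -0.96, standard error 0.12, adjusted p = 0.00063), a call that held in 13 of 13 alternatives. Libraries 1 and 3 of B6J.*Gtpbp1*-/- were below B6J and library 2 was within its range, and the threshold was not passed (log2 fold change -0.52, standard error 0.20, adjusted p = 0.153). Without B6J.*Gtpbp1*-/- RNA library 2, *Fabp7* passed in B6J.*Gtpbp1*-/- (log2 fold change -0.81, adjusted p = 0.00134), as it did by DESeq2 (adjusted p = 0.0143) and with no filter on low counts (1.85e-04), in a range of 1.85e-04 to 0.342 over 14 alternatives. The test between the mutants was not passed (log2 fold change 0.44, standard error 0.21, adjusted p = 1.00). *Fabp7* footprints were 51.4, 92.7 and 155 CPM in B6J, against 133, 81.2 and 91.6 CPM in B6J.*Gtpbp1*-/- and 103, 47.8 and 38.9 CPM in B6J-*Gtpbp2*-/-, with overlap between all groups (log2 fold change 0.03, adjusted p = 0.983 in B6J.*Gtpbp1*-/-, and log2 fold change -0.67, adjusted p = 0.64 in B6J-*Gtpbp2*-/-). Of 8 further genes of fatty acid binding, *Fabp1* and *Fabp2* were at 0 and 6 were tested in RNA, giving 1 up and 2 down of 6 (3 by DESeq2) in B6J.*Gtpbp1*-/- (median 0.09) and 1 up and 1 down of 6 (3 by DESeq2) in B6J-*Gtpbp2*-/- (-0.09). *Fabp3* fell in B6J.*Gtpbp1*-/- (log2 fold change -0.56, adjusted p = 0.0208) and in B6J-*Gtpbp2*-/- (log2 fold change -0.63, adjusted p = 0.0176). Footprints gave 0 of 6 (0 at unadjusted p under 0.05, 0 by DESeq2, median 0.17) in B6J.*Gtpbp1*-/- and 0 of 5 (1 at unadjusted p under 0.05, 1 by DESeq2, median 0.31) in B6J-*Gtpbp2*-/-.

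*S100b* RNA was 378, 354 and 329.8 CPM in B6J, against 298, 282 and 292.5 CPM in B6J.*Gtpbp1*-/- and 226, 295 and 272 CPM in B6J-*Gtpbp2*-/-. All mutant libraries were below B6J in CPM, and *S100b* fell in B6J.*Gtpbp1*-/- (log2 fold change -0.28, standard error 0.08, adjusted p = 0.0343) and in B6J-*Gtpbp2*-/- (log2 fold change -0.42, standard error 0.10, adjusted p = 0.0309). As TPM, which is not TMM scaled, *S100b* was 518, 478 and 442 in B6J. The TPM values were 453, 428 and 449 in B6J.*Gtpbp1*-/- and 341, 451 and 409 in B6J-*Gtpbp2*-/-, and both mutants overlapped with B6J. Both calls were near the threshold. In B6J.*Gtpbp1*-/- it was lost without B6J.*Gtpbp1*-/- RNA library 1 (adjusted p = 0.0579), 2 (0.151) or 3 (0.0618) and without B6J RNA library 1 (0.157) or 2 (0.0794), and also with upper quartile normalization (0.0718), an effective length offset (0.0636), a fit of all 9 libraries (0.0665), a replicate block (0.0996) or sex in the model (0.0908), and held in 4 of 14 alternatives (0.00342 to 0.157). The log2 fold change in the 14 alternatives stayed between -0.33 and -0.23. In B6J-*Gtpbp2*-/- the call was lost without B6J-*Gtpbp2*-/- RNA library 1 (adjusted p = 0.0553) or 3 (0.0731), without B6J RNA library 1 (0.134) or 2 (0.0893) and with the length offset (0.0585), and held in 8 of 13 (0.00123 to 0.134). The log2 fold change in these 13 stayed between -0.51 and -0.32. *S100b* footprints were 173, 326 and 263 CPM in B6J, against 245, 214 and 427.5 CPM in B6J.*Gtpbp1*-/- and 321, 208 and 289 CPM in B6J-*Gtpbp2*-/-, with overlap between the groups (log2 fold change 0.22, adjusted p = 0.815 in B6J.*Gtpbp1*-/-, and log2 fold change 0.09, adjusted p = 0.883 in B6J-*Gtpbp2*-/-). Of 10 genes of the S100 family and its receptor *Ager*, RNA gave 1 up and 0 down of 10 (2 by DESeq2) in B6J.*Gtpbp1*-/- (*Ager*, log2 fold change 1.63, adjusted p = 0.0205; 1.41, adjusted p = 0.0883 in B6J-*Gtpbp2*-/- and 0.22, adjusted p = 1.00 between the mutants) and 0 up and 1 down of 10 (2 by DESeq2) in B6J-*Gtpbp2*-/-, with medians of 0.19 and -0.12. Their footprints gave 0 of 9 (4 at unadjusted p under 0.05, 0 by DESeq2, median 0.63) in B6J.*Gtpbp1*-/- and 0 of 9 (3 at unadjusted p under 0.05, 2 by DESeq2, median 0.23) in B6J-*Gtpbp2*-/-.

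**Figure D3:**
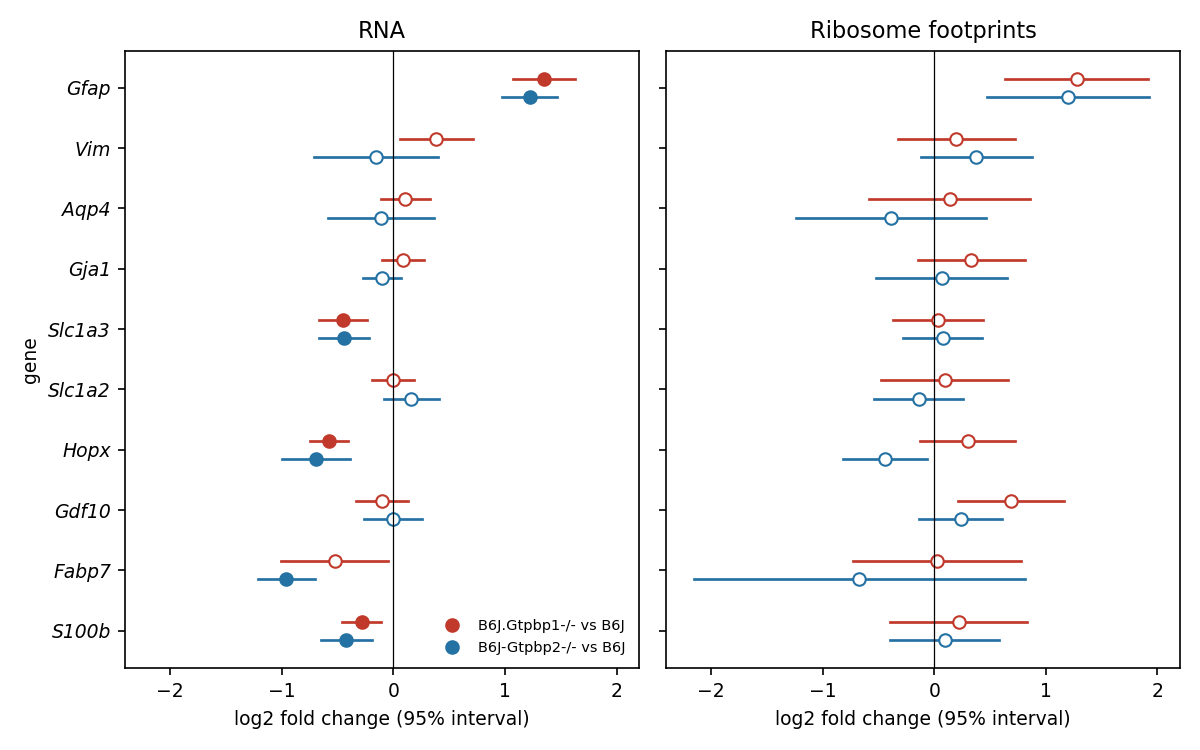
Log2 fold changes of the 10 genes against B6J with 95% intervals in RNA and footprints (filled symbols, adjusted p of at most 0.05). In RNA *Gfap* rose (1.35 in B6J.*Gtpbp1*-/-, 1.22 in B6J-*Gtpbp2*-/-) while *Slc1a3*, *Hopx* and *S100b* fell in both mutants and *Fabp7* fell in B6J-*Gtpbp2*-/-. Under alternatives the *S100b* call held in 4 of 14 in B6J.*Gtpbp1*-/- and 8 of 13 in B6J-*Gtpbp2*-/-. The *Slc1a3* call held in 11 of 14 and 9 of 13, and the *Hopx* call in 14 of 14 and 10 of 13.

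Lists of other glial genes place these values beside the rest of the cell type. Of 22 other Bergmann glia genes, RNA gave 1 up and 11 down of 22 (12 by DESeq2) in B6J.*Gtpbp1*-/- (median log2 fold change -0.23) and 0 up and 4 down of 22 (11 by DESeq2) in B6J-*Gtpbp2*-/- (-0.27). The summed level of the Bergmann glia list was 3857, 4148 and 3519 CPM in B6J, against 3038, 2950.2 and 3247 CPM in B6J.*Gtpbp1*-/- and 3017, 3161 and 2749.6 CPM in B6J-*Gtpbp2*-/-. All mutant libraries were below B6J here, and the most abundant gene was *Gria1* by CPM and *Dbi* by TPM. Summed as TPM, which is not TMM scaled, B6J.*Gtpbp1*-/- (2911, 2820 and 2916) stayed below B6J (3273, 3360 and 2947). The TPM sums of B6J-*Gtpbp2*-/- (2703, 3002 and 2529) overlapped with B6J. *Tnc* RNA was 59.9, 61.04 and 48.3 CPM in B6J, against 13.2, 16.3 and 16.2 CPM in B6J.*Gtpbp1*-/- and 15.6, 19.5 and 18.4 CPM in B6J-*Gtpbp2*-/-. Every mutant library was below every B6J library, and *Tnc* fell in B6J.*Gtpbp1*-/- (log2 fold change -1.89, standard error 0.12, adjusted p = 4.3e-07) and in B6J-*Gtpbp2*-/- (log2 fold change -1.66, standard error 0.12, adjusted p = 1.98e-05). *Gria4* (-0.73, adjusted p = 0.000415 in B6J.*Gtpbp1*-/-, and -0.65, adjusted p = 0.00292 in B6J-*Gtpbp2*-/-) and *Sept4* (-0.45, adjusted p = 0.00199 in B6J.*Gtpbp1*-/-, and -0.46, adjusted p = 0.0148 in B6J-*Gtpbp2*-/-) also fell in both, and *Gria4* is made by granule cells too. *Mfge8*, *Cspg5* and *Metrn* fell in B6J.*Gtpbp1*-/- and were short of the threshold in B6J-*Gtpbp2*-/-. *Mfge8* gave -0.59, adjusted p = 0.00143 in B6J.*Gtpbp1*-/-, -0.49, adjusted p = 0.066 in B6J-*Gtpbp2*-/- and -0.09, adjusted p = 1.00 between the mutants. *Cspg5* gave -0.43, adjusted p = 0.00588 in B6J.*Gtpbp1*-/-, -0.27, adjusted p = 0.132 in B6J-*Gtpbp2*-/- and -0.16, adjusted p = 1.00 between the mutants. *Metrn* gave -0.78, adjusted p = 0.00767 in B6J.*Gtpbp1*-/-, -0.69, adjusted p = 0.0612 in B6J-*Gtpbp2*-/- and -0.10, adjusted p = 1.00 between the mutants. Footprints of the Bergmann glia list gave 0 of 22 (3 at unadjusted p under 0.05, 1 by DESeq2) in B6J.*Gtpbp1*-/- (median 0.09) and 0 up and 1 down of 22 (1 by DESeq2) in B6J-*Gtpbp2*-/- (-0.06).

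Of 30 other astrocyte genes, RNA gave 2 up and 7 down of 30 (10 by DESeq2) in B6J.*Gtpbp1*-/- (median log2 fold change -0.06) and 1 up and 6 down of 30 (10 by DESeq2) in B6J-*Gtpbp2*-/- (-0.09). With upper quartile normalization these counts were 2 up and 5 down in B6J.*Gtpbp1*-/- and 2 up and 3 down in B6J-*Gtpbp2*-/-. The summed level of the astrocyte list was 12078, 13225 and 12278 CPM in B6J, against 12586, 11187 and 11448 CPM in B6J.*Gtpbp1*-/- and 12888, 11272 and 11179.7 CPM in B6J-*Gtpbp2*-/-. The groups overlapped, and the most abundant gene was *Sparcl1* by CPM and *Apoe* by TPM. Summed as TPM, which is not TMM scaled, the list gave 9983, 10850 and 10476.5 in B6J. The TPM sums were 12848, 11089 and 11523 in B6J.*Gtpbp1*-/-, all above B6J. In B6J-*Gtpbp2*-/- they were 12800, 11258 and 10762, which overlapped with B6J. Of the 30 genes, 22 had a log2 fold change below 0 in B6J.*Gtpbp1*-/- and 19 in B6J-*Gtpbp2*-/-. *Gpr37l1* fell in B6J.*Gtpbp1*-/- (log2 fold change -0.55, adjusted p = 0.00173) and in B6J-*Gtpbp2*-/- (log2 fold change -0.56, adjusted p = 0.00496). *Slc7a10* (-0.35, adjusted p = 0.0121 in B6J.*Gtpbp1*-/-, and -0.48, adjusted p = 0.0179 in B6J-*Gtpbp2*-/-) and *Acsbg1* (-0.39, adjusted p = 0.0204 in B6J.*Gtpbp1*-/-, and -0.36, adjusted p = 0.0373 in B6J-*Gtpbp2*-/-) fell in both, and *Cst3*, which microglia also make, rose in both (0.54, adjusted p = 0.00616 in B6J.*Gtpbp1*-/-, and 0.63, adjusted p = 0.0153 in B6J-*Gtpbp2*-/-). *Mt3* fell in B6J.*Gtpbp1*-/- alone (-0.42, adjusted p = 0.00306, with -0.14, adjusted p = 0.539 in B6J-*Gtpbp2*-/- and -0.29, adjusted p = 1.00 between the mutants). Footprints gave 0 of 30 (4 at unadjusted p under 0.05, 1 by DESeq2) in B6J.*Gtpbp1*-/- (median 0.26) and 0 of 30 (9 at unadjusted p under 0.05, 2 by DESeq2) in B6J-*Gtpbp2*-/- (0.02). Some lists share genes, 3 each between the astrocyte list and the glutamate and AQP4 lists, and *Nes*, *S100a10* and *Slc1a6* each sit in 2 lists. Over the 16 lists, 208 of 211 distinct genes were tested between the mutants in RNA, and 0 passed with edgeR (19 at unadjusted p under 0.05, 1 by DESeq2). Between the mutants in footprints it was 0 of 204 (52 at unadjusted p under 0.05, 7 by DESeq2).

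Translational efficiency, footprints relative to RNA in a single model, was tested for each mutant against B6J. In B6J.*Gtpbp1*-/- 0 of the 10 genes passed with edgeR (3 at unadjusted p under 0.05, 1 by DESeq2), beside 0.0% of 13086 genes, and in B6J-*Gtpbp2*-/- 0 of 10 did (1 at unadjusted p under 0.05, 0 by DESeq2), beside 0.00773% of 12931. The 10 genes had a median log2 fold change of 0.37 in B6J.*Gtpbp1*-/- and of 0.25 in B6J-*Gtpbp2*-/-, against 0.03 over all genes. The largest value was *Hopx* in B6J.*Gtpbp1*-/- (log2 fold change 0.88, standard error 0.22, adjusted p = 0.414), which DESeq2 called (adjusted p = 0.0400) and which passed without B6J footprint library 3 (log2 fold change 1.03, adjusted p = 0.0253), in a range of 0.0253 to 0.793 over 16 alternatives. Leaving out that library also took the calls over all genes from 0 to 174 in B6J.*Gtpbp1*-/- and from 1 to 158 in B6J-*Gtpbp2*-/-. *Hopx* gave 0.25, adjusted p = 0.705 in B6J-*Gtpbp2*-/-. No other of the 10 genes was called by edgeR or DESeq2. *Slc1a3* gave 0.49, adjusted p = 0.523 in B6J.*Gtpbp1*-/- and 0.52, adjusted p = 0.297 in B6J-*Gtpbp2*-/-. *Gdf10* gave 0.79, adjusted p = 0.477 in B6J.*Gtpbp1*-/- and 0.24, adjusted p = 0.701 in B6J-*Gtpbp2*-/-, and *S100b* gave 0.51, adjusted p = 0.691 and 0.52, adjusted p = 0.488. The estimate of *Gfap* lay close to 0 with a wide interval (-0.07, 95% interval -0.86 to 0.73, adjusted p = 0.975 in B6J.*Gtpbp1*-/-, and -0.01, -0.82 to 0.79, adjusted p = 0.993 in B6J-*Gtpbp2*-/-). With a library left out it ran from -0.46 to 0.20 in B6J.*Gtpbp1*-/- and from -0.45 to 0.24 in B6J-*Gtpbp2*-/-. The other 5 genes passed in neither mutant. Their values in B6J.*Gtpbp1*-/- and B6J-*Gtpbp2*-/- were -0.19 and 0.54 for *Vim*, 0.04 and -0.27 for *Aqp4*, 0.25 and 0.17 for *Gja1*, 0.11 and -0.30 for *Slc1a2* and 0.55 and 0.29 for *Fabp7*. Of the list genes, 0 of 200 passed in B6J.*Gtpbp1*-/- with edgeR (41 at unadjusted p under 0.05, 3 by DESeq2) and 0 of 195 in B6J-*Gtpbp2*-/- (38 at unadjusted p under 0.05, 6 by DESeq2).

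Across the 9 RNA libraries, log2 CPM values describe which genes vary together, with genotype among the sources of that variation. Among 24031 genes those most like *Gfap* were *Trem2*, *Lag3* and *Eef1a1*, which the values do not separate (Pearson r = 0.987 for each, 9 libraries). *S100b* was most like *Hopx* (r = 0.986), and *Hopx* was as much like *Garem2* as like *S100b* (r = 0.986 for both). The most alike genes of the rest were *Zfp521* and *Gm43305* for *Slc1a3* (0.985 for each), *Csrnp3* for *Slc1a2* (0.981), *Phb* for *Fabp7* (0.968), *Rab20* for *Vim* (0.962), *Wfdc1* for *Aqp4* (0.957), *Tnik* for *Gdf10* (0.948) and *Stac* for *Gja1* (0.944). Of the 45 pairs within the 10 genes, 11 had an r beyond 0.7 in size. Beside *Hopx* with *S100b* these were *Gfap* against *Slc1a3* (r = -0.84), *Fabp7* with *S100b* (0.83) and *Hopx* (0.81), *Gja1* with *Vim* (0.78), *Slc1a3* with *Hopx* (0.77) and *S100b* (0.71), *Aqp4* with *Vim* (0.75), *Gfap* against *Hopx* and *Fabp7* (-0.74 for each) and *Aqp4* against *Slc1a2* (-0.72).

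The study describes ribosomes paused at AGA codons in both mutants, so the AGA codons of the main transcripts were counted. *S100b* has 0 AGA codons in 92 codons, *Hopx* 1 in 73, *Aqp4* 2 in 323, *Fabp7* 2 in 132, *Gfap* 4 in 430, *Gdf10* 4 in 476, *Slc1a3* 5 in 543, *Slc1a2* 6 in 572, *Vim* 6 in 466 and *Gja1* 9 in 382. *Gja1* thus has 23.6 per 1000 codons, above 88.4% of genes, where the median over 18158 genes is 10.6. Pausing itself was not read here, since the footprint tables hold 1 count per gene.

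Promoter sequences were listed for 9 of the 10 genes (not *Aqp4*), with more than 1 start for *Hopx*, and all were searched on both strands for 5 motifs in the 250 bases before the start. Astrocyte genes are known targets of STAT3, AP-1, NFI and SOX9 factors. Over 32851 promoters the share with a match was 7.02% for STAT (TTCNNNGAA), 6.75% for AP-1 (TGANTCA), 12.4% for the TATA box (TATAAA), 12.3% for 1 arm of the palindromic NFI site (TTGGCA) and 5.03% for SOX (AACAAAG). The promoter of *Slc1a3* had a STAT match at -96 and a TATA match on the other strand at -161, that of *S100b* had 1 arm of an NFI site at -19, that of *Gja1* an AP-1 match at -19 and that of *Vim* a TATA match at -32. The promoters of *Gfap*, *Hopx* (each start), *Fabp7*, *Gdf10* and *Slc1a2* had no match. The window of *Slc1a2* (chr2:102706188-102706437) lies before a start inside the gene (chr2:102658659-102790784 in Gencode), not before its outermost start. Windows of some other genes, such as *Gfap* (chr11:102887336-102900912 in Gencode), also lie inside the span of the gene. With so short a window and such common motifs a match does not show that a factor binds.

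The promoters of genes past the threshold in both RNA comparisons and with a single listed start are shown.
The sequences are from the RefSeq annotation of build GRCm38.p6, written 5' to 3' on the strand of the gene, for *Gfap* (chr11:102897201-102897450, minus strand), *Slc1a3* (chr15:8710808-8711057, minus strand) and *S100b* (chr10:76253586-76253835, plus strand), and capitals mark the motif matches.
Gfap promoter: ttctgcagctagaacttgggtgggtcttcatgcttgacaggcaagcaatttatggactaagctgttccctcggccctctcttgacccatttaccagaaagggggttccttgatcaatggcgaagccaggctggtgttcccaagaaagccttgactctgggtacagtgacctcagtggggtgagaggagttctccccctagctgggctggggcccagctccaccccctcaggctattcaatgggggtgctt
Slc1a3 promoter: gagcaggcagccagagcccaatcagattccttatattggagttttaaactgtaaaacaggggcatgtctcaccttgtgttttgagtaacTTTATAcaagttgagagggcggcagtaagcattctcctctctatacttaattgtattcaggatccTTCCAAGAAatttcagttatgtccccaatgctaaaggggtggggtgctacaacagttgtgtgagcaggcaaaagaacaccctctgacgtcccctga
S100b promoter: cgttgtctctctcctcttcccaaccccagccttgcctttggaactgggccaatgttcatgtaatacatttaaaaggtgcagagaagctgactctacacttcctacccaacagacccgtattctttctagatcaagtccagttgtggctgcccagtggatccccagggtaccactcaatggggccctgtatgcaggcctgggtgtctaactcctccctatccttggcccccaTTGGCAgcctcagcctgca

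The genes are spread over the genome (GRCm38 coordinates of Gencode). *Slc1a3* (chr15:8634124-8710764, minus strand) is on the chromosome of *Gtpbp1* (chr15:79690845-79721479), around which DNA of the donor strain can remain in congenic mice, and whether such DNA acts on *Slc1a3* was not tested. *Fabp7* (chr10:57784881-57788450), *Gja1* (chr10:56377330-56402513) and *S100b* (chr10:76253853-76261159) share a chromosome, all on the plus strand. *S100b* overlaps *Dip2a* on the opposite strand (47.5 TPM in B6J).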

How the data were processed

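The deposited RNA tables of the authors hold estimated counts, TPM and effective length per transcript, which the submitters' processing notes credit to kallisto 0.42.4. The deposited footprint tables of the authors hold counts per gene on coding sequence, credited there to Bowtie2 2.2.3, HISAT2 2.1.0 and featureCounts on mm10. Gene counts of RNA are sums of the estimated counts of its transcripts, rounded to whole reads. TPM, which is not TMM scaled, was used for order of level, shares of transcripts, a second reading of *Vim* and *S100b* and a second sum of the astrocyte and Bergmann glia lists only. Effective length was used for an alternative offset. Sums over a list of genes are of CPM unless TPM is named. Library totals were 37794598 to 52114400 in RNA and 3630823 to 10442573 in footprints.

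Each pair of genotypes was compared with the edgeR 4.0.16 quasi-likelihood test (R 4.3.3, robust fit, TMM normalization) after dropping genes below 5 counts in more than 3 of their 6 libraries, with Benjamini-Hochberg adjustment over all tested genes and a threshold of adjusted p of at most 0.05. Each fold change is the first group over the second, and between the mutants it is B6J.*Gtpbp1*-/- over B6J-*Gtpbp2*-/-. Translational efficiency was the interaction of assay and genotype over the 12 libraries of a mutant and B6J, after dropping genes below 10 counts in more than 3 of 6 libraries of either assay and names starting with Hist. RNA and footprint files carry different batch labels, so assay and batch cannot be told apart. DESeq2 1.42.0 was run on the same genes, and its counts for lists of genes are of both directions. CPM values are TMM normalized over the 9 libraries of an assay. The code was tested on simulated data. Genes named from the lists are those with the smallest adjusted p in B6J.*Gtpbp1*-/- RNA, up to 6 per list, and a set of reactive genes, *Col1a1* and *Myh1* whatever their p. The members and the lists were chosen with earlier results of these data known.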

Additional observations from a re-analysis of the deposited data

How the results depend on the processing

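The count of the 10 genes past the threshold was 4 in B6J.*Gtpbp1*-/- RNA, 6 by DESeq2 and with no filter on low counts, 3 with upper quartile normalization, with all 9 libraries in the fit or with sex in it, and 2 to 4 when a library was left out. Calls over all genes there were 3398, with 4131 by DESeq2, 4325 with no filter and 3349 with upper quartile normalization. They were 3433 with all 9 libraries, 2301 with sex and 1890 to 3798 when a library was left out. The count of the 10 genes was 5 in B6J-*Gtpbp2*-/- RNA, 4 with an effective length offset and 2 to 5 when a library was left out. Calls over all genes there were 2146, with 1351 with the length offset and 953 to 2357 when a library was left out. In B6J.*Gtpbp1*-/- footprints the count of 0 became 1 by DESeq2 and with no filter on low counts, and 0 to 1 when a library was left out. In B6J-*Gtpbp2*-/- footprints and between the mutants in footprints, the count of 0 became 1 by DESeq2. DESeq2 also raised the footprint calls over all genes. They went from 104 to 406 in B6J.*Gtpbp1*-/-, from 406 to 634 in B6J-*Gtpbp2*-/- and from 0 to 91 between the mutants. In B6J.*Gtpbp1*-/- they were 213 with no filter and 22 to 186 when a library was left out. For translational efficiency in B6J.*Gtpbp1*-/- the count of 0 of the 10 genes became 1 by DESeq2 and 0 to 1 when a library was left out. Without B6J footprint library 3, calls of translational efficiency over all genes went from 0 to 174 in B6J.*Gtpbp1*-/- and from 1 to 158 in B6J-*Gtpbp2*-/-, and by DESeq2 they were 52 and 160. Of 1050 fold changes of the 10 genes under alternatives, 943 kept sign and call, 25 lost a call, 14 gained one, 68 uncalled ones changed sign and 0 called ones reversed.

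With a replicate block the counts were 3 in B6J.*Gtpbp1*-/- RNA, 5 in B6J-*Gtpbp2*-/- RNA and 0 in B6J.*Gtpbp1*-/- footprints. Calls over all genes with the block were 2237, 2130 and 44 in the same order. In B6J.*Gtpbp1*-/- RNA the block ended the calls of *Slc1a3* (log2 fold change -0.45, adjusted p = 0.0587) and *S100b* (-0.28, 0.0996). It made one for *Vim* (0.40, 0.0334). Samples share only a number: over 27 pairs of libraries with the same number (in 2 genotypes, or in RNA and footprints of 1 genotype), r of the deviations from the group mean ran from -0.287 to 0.119, with 3 above 0.1. *Ddx3y* differs between RNA and footprint libraries of the same number (0 and 84.8 CPM in B6J 1, 128 and 2.87 CPM in B6J.*Gtpbp1*-/- 2), so these are not from the same mouse.

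Upper quartile normalization moved the split of calls in RNA over all genes, from 1449 up and 1949 down (42.6% up) to 1837 and 1512 (54.9% up) in B6J.*Gtpbp1*-/-, and from 898 and 1248 (41.8% up) to 1074 and 941 (53.3% up) in B6J-*Gtpbp2*-/-.

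With 1 age, the course of a change over time cannot be read. With 3 libraries per group several calls were lost when 1 library was left out, while their fold changes kept their direction. Protein, cell shape and cell numbers were not analysed here, and the cell that made a transcript or footprint is not known.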
